A study of Mus musculus with 6 samples.

Results

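The collagens and meningeal matrix genes described here were chosen by name. They are every non-control probe of the array whose gene name has the form of a collagen chain (Col1a1 and so on), together with the probes of Lum, Dcn, Ogn, Fmod, Bgn, Fbln1, Slc6a13 and Islr. The rule finds 99 of 41174 probes and 51 of 27343 gene names, 43 of them collagens. Of these, 84 probes and 46 genes passed the filter on low signal (well above background on at least 3 of 6 arrays) and were tested among 21438 genes, and the other 5 genes are given at the end of the results.

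Total RNA came from the spinal cord of 8-week-old male C57BL/6 mice, 3 samples labelled wild-type and 3 labelled Dhtkd1 null, with 1 one-colour array per sample. Dhtkd1 encodes a subunit of a mitochondrial dehydrogenase in lysine breakdown, and the study asked which transcripts of the cord differ when it is knocked out. How the null allele was made, and in which cells it acts, is not given in the sources used here. The labels number the samples without saying that each is a separate animal, so p-values measure only the spread between these samples.

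Collagens are proteins of 3 chains wound into a triple helix, which requires a glycine at the start of each short repeat of the chain. Fibrils of collagens I, III and V carry tension, collagen IV forms the sheets of basement membranes, collagen VI forms beaded filaments, and small leucine-rich proteoglycans such as lumican and decorin bind to fibrils and shape them. In the cord, the fibroblasts of the meninges and of large vessels make most of the fibrillar matrix, while endothelial cells, pericytes and Schwann cells of the nerve roots make basement membrane. The parenchyma of the cord itself holds little fibrillar collagen, so a cord sample carries these transcripts largely with its coverings and vessels.

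The glycine repeat can be read directly in the array's own probes. The search asked for glycine codons (GGN) spaced 3 codons apart along the whole probe, at least 6 of them. Each probe was read in its given direction, in a frame without a stop codon, and a broken repeat was not counted. Among all 41174 probes, including those of the other 8 genes, only 3 met this rule, all among the 86 probes of collagen genes. They are shown because the repeat that defines the family is visible in them, with the glycine codons in capitals:
Col11a2: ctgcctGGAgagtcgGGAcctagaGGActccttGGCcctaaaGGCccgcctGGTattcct
Col5a1: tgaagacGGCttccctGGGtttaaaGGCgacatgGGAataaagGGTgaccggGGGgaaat
Col5a3: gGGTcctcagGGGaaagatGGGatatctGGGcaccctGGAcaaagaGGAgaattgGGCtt
In mm9, the build of the array files, the first lies at chr17:34189287-34189453, the next at chr2:27842243-27844666, and the last on the minus strand at chr9:20590066-20590795. The Col5a3 probe holds 7 glycine codons and the others 6 each. None of these 3 is the brightest probe of its gene, so the values given for these genes further on come from other probes. The null minus wild-type differences at these probes were 0.30 (SE 0.23) for Col11a2, -0.21 (SE 0.23) for Col5a1 and 0.22 (SE 0.21) for Col5a3, each within the spread between arrays.

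Signals are log2 intensities scaled to each array's 75th percentile, so that 0 is the level of the probe at that rank. A signal is that of the gene's brightest kept probe, and levels are compared only within a gene. The 75th percentile was 950.4 to 1055 intensity units, with 78.4% to 82.0% of each array's spots well above background. Wild-type 3 had the lowest value of both. Barcodes show 2 slides: slide 1 holds wild-type 2 and all 3 null samples, and slide 2 holds wild-type 1 and wild-type 3. The slides were scanned in the same grouping. At its brightest probe, Dhtkd1 itself measured -2.42, -3.12 and -2.92 in wild-type 1, 2 and 3 and -4.30, -3.39 and -3.99 in null 1, 2 and 3, so the genotype labels were borne out by groups that did not overlap. Its other probe differed by -1.08 (SE 0.08). All 10 markers fixed for spinal cord, among them Hoxc6, Hoxc9, Gfap and Chat, were well above background on all 6 arrays.

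No collagen or meningeal matrix gene passed the adjusted threshold between genotypes. With limma and Benjamini-Hochberg adjustment over 21438 genes, 0 members passed an adjusted p of 0.05, against 0 of all genes (0%), and the members' adjusted p ran from 0.50 to 0.99. Dhtkd1 itself, at -1.07 (SE 0.29), had an adjusted p of 0.45 in this test. Missing the threshold therefore does not show that a gene was unchanged. At an unadjusted p under 0.05, Col25a1 and Col7a1 were higher in null cord, 2 of 46 members beside 1234 genes (5.76%) overall. Col23a1 was lower, 1 of 46 beside 697 genes (3.25%). The null arrays lay above all wild-type arrays for Col25a1 and Col7a1 (all genes, 9.18%) and below all of them for Col12a1 and Col22a1 (all genes, 5.63%). These shares are near or below those of all genes.

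The sign of the differences was less even. In null cord 41 of 46 members had the lower mean, beside 45.5% of all genes, with a median log2 difference of -0.32 beside 0.017 over all genes. Col20a1, Col25a1, Col7a1, Col6a4 and Fbln1 were the 5 with the higher mean. No sample left out alone turned this direction, but its size depended on the samples. Within slide 1, where wild-type 2 is the only wild-type sample, 16 of 46 members were lower (all genes, 48.9%) and the median was 0.057. Leaving out wild-type 3 alone gave 33 lower and a median of -0.10, and leaving out null 1 alone gave 30 lower and a median of -0.16. Without both, 17 of 46 were lower (all genes, 50.4%) and the median was 0.13. That pair was chosen after the data were seen, as the arrays that most often held the members' highest and lowest values. Its removal moves the difference upward by construction for the 21 members with their highest value in wild-type 3 and lowest in null 1.

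**Figure D1:**
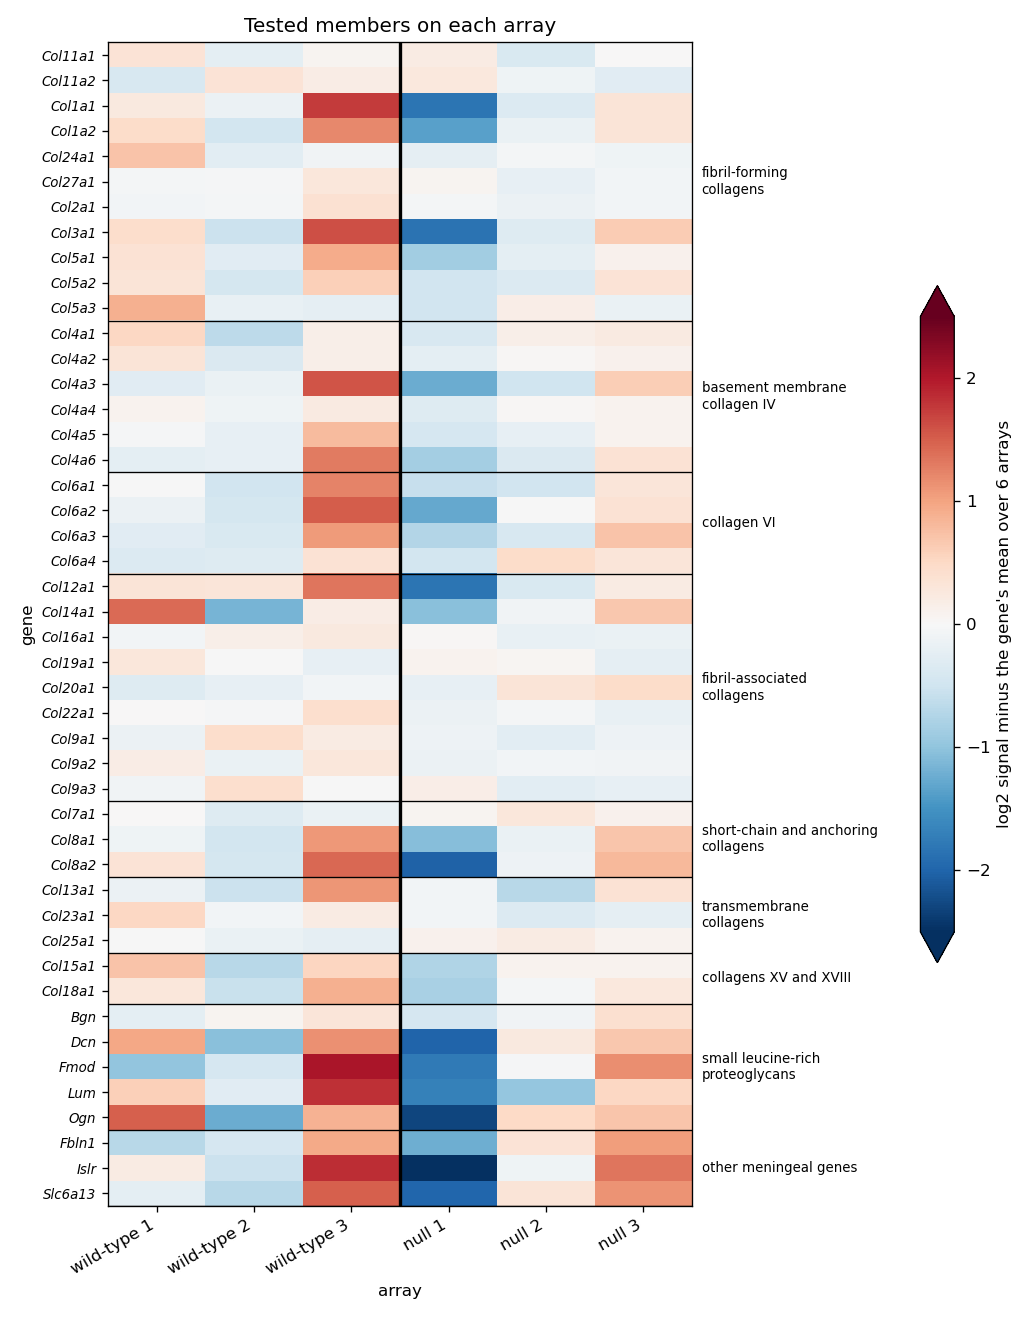
Heat map of the 46 tested members (rows, grouped by class) on the 6 arrays (columns), coloured by log2 signal minus the gene's mean over all arrays, with colours ending at 2.5 in either direction. The column of wild-type 3 is the reddest and that of null 1 the bluest: 27 of 46 members were highest in wild-type 3 and 27 were lowest in null 1.

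The members differed widely between samples of the same genotype. The median within-group SD of a member was 0.53 log2 units, beside 0.15 for all genes, and the range over the 6 arrays exceeded 1 log2 unit in 27 of 46 members (58.7%) beside 15.0% of all genes. Such spread was not particular to them: the median within-group SD was 0.82 for other stromal matrix proteins, 1.17 for meningeal fibroblast markers outside the members, 1.02 for skeletal muscle, 1.19 for Schwann cell and 1.48 for adipocyte markers. Wild-type 3 held the highest value for 58.7% of the members and 16.5% of all genes, and null 1 the lowest for 58.7% of the members and 11.2% of all genes. In 21 members both were true, beside 3.97% of all genes. Wild-type 3 also held the lowest value for 30.1% of all genes, the largest such share of any array, beside 2.17% of the members. Averaged over the members, each gene centred on its own mean, the arrays stood at 0.15 (wild-type 1), -0.30 (wild-type 2), 0.71 (wild-type 3), -0.76 (null 1), -0.11 (null 2) and 0.30 (null 3). The genotypes therefore overlapped, with null 3 above both wild-type 1 and wild-type 2.

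Markers of meningeal fibroblasts that are not members moved with this. The list was chosen with earlier results of these data known. All 12 markers, which include the transporters Slc47a1, Slc13a4 and Slc22a6 and the growth factor Igf2, passed the filter on low signal. Their mean centred level was -0.32, -0.29 and 1.36 in wild-type 1, 2 and 3 and -1.67, 0.081 and 0.84 in null 1, 2 and 3. All 12 were highest in wild-type 3 and 10 were lowest in null 1, none passed the adjusted threshold, and 9 of 12 had the lower mean in null cord (median -0.42). Within slide 1, 5 of 12 were lower (median 0.14). Tbx18, a transcription factor, differed by -0.88 (SE 0.61). Tbx18 and Crabp2 were not well above background on every array. Igf2 measured 2.10, 2.24 and 3.97 in wild-type and 0.17, 2.29 and 3.25 in null samples. Their part in the members' differences was not tested. In bulk RNA, fewer cells of a type and less RNA per cell cannot be told apart.

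Skeletal muscle, adipocyte and Schwann cell markers followed other orders than the members. Skeletal muscle markers (12 measured) were at -0.44, 1.16 and -1.64 in wild-type and 0.13, 0.45 and 0.34 in null samples. They were lowest where the members were highest, in wild-type 3, which was also the lowest array for 30.1% of all genes. Adipocyte markers (9 of 10 measured) were highest in null 2 at 1.69 and lowest in wild-type 1 at -1.28. Schwann cell markers (6 measured) were at 1.99, -0.85 and 0.017 in wild-type and -1.42, 0.29 and -0.026 in null samples, so null 1 was again the lowest array. The array pattern was not particular to the members and meningeal markers. Mural cell markers were also highest in wild-type 3, at 0.24, and lowest in null 1, at -0.29. Cartilage and bone markers were highest in wild-type 3 as well, at 0.75, but lowest in wild-type 1, at -0.73. The mean over the 10 spinal cord markers stayed between -0.13 and 0.17. Single markers moved more: 4 of 10 ranged over more than 1 log2 unit (40%, beside 15.0% of all genes), with Hoxc10 the widest at 2.21.

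**Figure D2:**
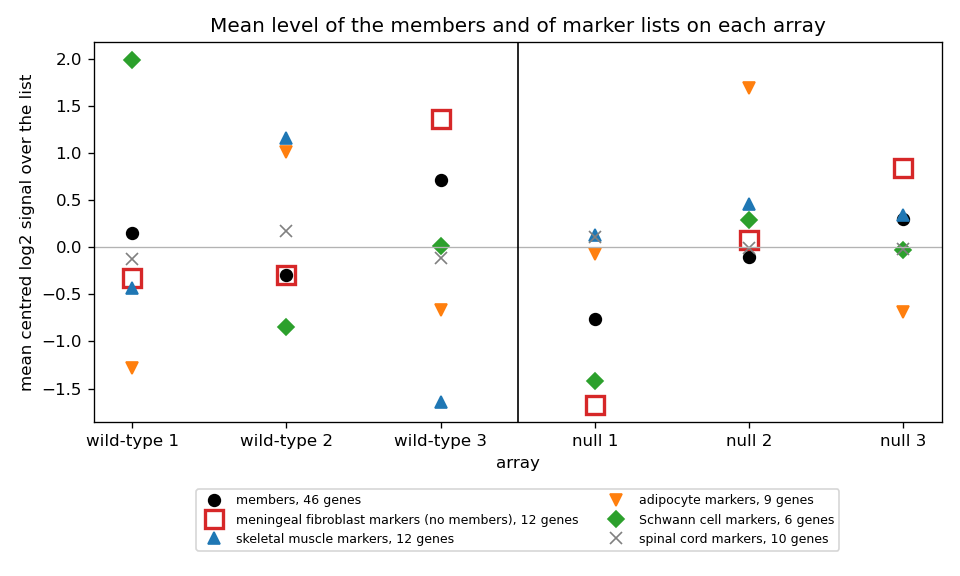
Mean centred log2 signal on each array (wild-type 1 to 3 left of the line, null 1 to 3 right of it) of the 46 members, of 12 meningeal fibroblast markers outside the members, and of markers of skeletal muscle (12), adipocytes (9), Schwann cells (6) and spinal cord (10). Members and meningeal markers were both highest in wild-type 3 (0.71 and 1.36) and lowest in null 1 (-0.76 and -1.67).

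Fibril-forming collagens were all lower on average in null cord (11 of 11, median -0.32), with 0 at an unadjusted p under 0.05 (all genes, 3.25% lower). Within slide 1, 5 of 11 were lower (median 0.020). Col1a1, the main chain of collagen I, measured 1.29, 0.91 and 2.80 in wild-type 1, 2 and 3 (mean 1.67 ± 1.00, SD, n = 3) and -0.78, 0.71 and 1.37 in null 1, 2 and 3 (0.43 ± 1.10, SD, n = 3). Wild-type 3 was high and null 1 low, and the groups overlapped, since null 3 exceeded both other wild-type samples. The difference was -1.23 (SE 0.72, adjusted p = 0.65), or 2.35-fold lower, and -0.47 within slide 1. All 3 kept probes of Col1a1 gave the same sign, from -1.28 to -0.96.

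Col1a2, the partner chain of collagen I, had the same highest and lowest array. It measured 4.55, 3.64 and 5.28 in wild-type samples (4.49 ± 0.82, SD, n = 3) and 2.73, 3.92 and 4.41 in null samples (3.69 ± 0.86, SD, n = 3). Null 2 and null 3 both lay above wild-type 2, so the groups overlapped. The difference of -0.80 (SE 0.58, adjusted p = 0.71) became 0.051 within slide 1.

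Col3a1, the chain of collagen III, which mixes with collagen I in pliable tissue, measured 0.99, 0.018 and 2.16 in wild-type samples (1.06 ± 1.07, SD, n = 3). In null samples it measured -1.30, 0.24 and 1.19 (0.040 ± 1.26, SD, n = 3). The same arrays were at the ends, and the groups overlapped. Its difference was -1.02 (SE 0.80, adjusted p = 0.73) over all arrays and 0.022 within slide 1. Dimmer probes of Col3a1 gave -0.10 and 0.16, so its probes did not share a sign.

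Collagen V regulates the diameter of collagen I fibrils. Its chains differed by -0.68 (Col5a1, SE 0.38), -0.32 (Col5a2, SE 0.34) and -0.32 (Col5a3, SE 0.35). Col5a1 followed Col1a1, with wild-type 3 highest at -0.11 and null 1 lowest at -1.92. Col5a3 instead stood highest in wild-type 1, at 1.42, where the Schwann cell markers were also highest, and a link between them was not tested. Collagen XI, the cartilage counterpart of collagen V, and the chains Col2a1, Col24a1 and Col27a1 differed by -0.24 to -0.081, and none of these 5 genes ranged over more than 1 log2 unit.

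For a view of the genes at the level of sequence, the bases before their starts were read from RefSeq (GRCm38.p6). The window is the 250 bases upstream of the start, before the transcribed part. Searched for on both strands, and set in capitals where found, were the motif CCAAT, the TATA box in the form TATAAA, and the GC box in the form GGGCGG. Col1a2 (chr6:4505368-4505617, plus strand) and Col3a1 (chr1:45311288-45311537, plus strand) are shown because both genes had the same highest and lowest array:
Col1a2: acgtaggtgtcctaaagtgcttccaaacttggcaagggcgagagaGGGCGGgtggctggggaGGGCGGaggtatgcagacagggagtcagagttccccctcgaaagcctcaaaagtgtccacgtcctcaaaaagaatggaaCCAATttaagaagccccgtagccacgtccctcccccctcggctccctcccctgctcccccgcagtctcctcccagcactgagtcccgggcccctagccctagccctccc
Col3a1: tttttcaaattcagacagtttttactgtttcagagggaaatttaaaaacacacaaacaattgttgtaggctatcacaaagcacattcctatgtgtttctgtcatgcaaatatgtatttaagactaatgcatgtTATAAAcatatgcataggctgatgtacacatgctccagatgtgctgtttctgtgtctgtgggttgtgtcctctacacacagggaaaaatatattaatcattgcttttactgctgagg
The Col1a2 window holds 1 CCAAT and 2 GGGCGG, and the Col3a1 window holds 1 TATAAA and neither other motif. Over the 41 member genes in the RefSeq table, 34.1% held CCAAT (37.5% of all 27025 genes in the table), 14.6% held TATAAA (14.3% of all genes) and 58.5% held GGGCGG (35.4% of all genes). A match describes letters and not a bound site.

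Collagen IV is the network of basement membranes. All 6 chains had the lower mean in null cord, with a median of -0.25, and within slide 1 only 2 of 6 were lower (median 0.035). Col4a1 and Col4a2 form the collagen IV of nearly all vessels and are transcribed in opposite directions from adjoining starts on chromosome 8. Col4a1 measured 0.91, -0.26 and 0.53 in wild-type (0.40 ± 0.59, SD, n = 3) and -0.0041, 0.54 and 0.62 in null samples (0.38 ± 0.34, SD, n = 3). Wild-type 2 was the lowest array and wild-type 1 the highest, and the groups overlapped fully. The difference was -0.010 (SE 0.33, adjusted p = 0.99) over all arrays and 0.64 within slide 1.

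Col4a2 had the same highest and lowest array as Col4a1. It measured 0.60, -0.096 and 0.41 in wild-type (0.30 ± 0.36, SD, n = 3) and 0.030, 0.31 and 0.37 in null samples (0.24 ± 0.18, SD, n = 3). The groups overlapped, at a difference of -0.068 (SE 0.20, adjusted p = 0.93), and 0.33 within slide 1. Both were thus highest in another array than the collagen I and III genes. Col4a3 to Col4a6, which form the specialised networks of kidney, lung and other basement membranes, differed by -0.74 (Col4a3), -0.14 (Col4a4), -0.36 (Col4a5) and -0.56 (Col4a6), and all 4 were highest in wild-type 3 and lowest in null 1. Only 2 of the 3 null arrays measured Col4a3 well above background.

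Collagen VI chains assemble from 3 different subunits into filaments around fibroblasts and muscle fibres. Col6a1 measured -0.72, -1.20 and 0.53 in wild-type (-0.46 ± 0.90, SD, n = 3) and -1.28, -1.19 and -0.41 in null samples (-0.96 ± 0.48, SD, n = 3). Wild-type 3 stood alone at the top, the other 5 arrays overlapped, and the difference was -0.50 (SE 0.49, adjusted p = 0.78). Its partners Col6a2 and Col6a3 differed by -0.62 (SE 0.66) and -0.27 (SE 0.54). Col6a4 differed by 0.21 (SE 0.31). All 4 were lowest in null 1, and within slide 1 none was lower in null than in wild-type 2 (median 0.24).

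Fibril-associated collagens lie on the surface of fibrils or at tissue junctions. Of 9 tested, 8 had the lower mean in null cord (median -0.21), as did 6 of 9 within slide 1 (median -0.095). Col12a1, which coats collagen I fibrils, measured -2.83, -2.85 and -1.81 in wild-type (-2.50 ± 0.59, SD, n = 3) and -4.98, -3.53 and -2.95 in null samples (-3.82 ± 1.04, SD, n = 3). Every null array lay below every wild-type array. The difference was -1.32 (SE 0.58, adjusted p = 0.57), or 2.50-fold lower, the second largest among the members. Within slide 1 it was -0.97, and without wild-type 3 and null 1 it was -0.40. A dimmer kept probe of Col12a1 differed by -0.068, with overlapping groups.

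Col22a1, a collagen of junctions between tissues, had the other pair of groups with all null arrays below. It measured -1.02, -1.07 and -0.60 in wild-type (-0.90 ± 0.25, SD, n = 3) and -1.19, -1.08 and -1.22 in null samples (-1.16 ± 0.075, SD, n = 3). Null 2 came close to wild-type 2, and the difference was -0.26 (SE 0.14, adjusted p = 0.62), with -0.095 within slide 1. Collagen IX, a cartilage collagen of 3 chains, differed by -0.34 (Col9a1, SE 0.16), -0.21 (Col9a2, SE 0.13) and -0.21 (Col9a3, SE 0.18), with no range above 1 log2 unit. Col14a1, which sits on interstitial fibrils, ranged over 2.56 log2 units, from -4.20 in wild-type 2 to -1.64 in wild-type 1. Col16a1 and Col19a1 differed by -0.21 and -0.055, and Col20a1, the single gene of this class with the higher mean, by 0.39 (SE 0.19).

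Transmembrane collagens are anchored in the plasma membrane. Col25a1, made by neurons and required for motor axons to innervate muscle, measured -3.74, -3.90 and -3.94 in wild-type (-3.86 ± 0.11, SD, n = 3) and -3.62, -3.52 and -3.64 in null samples (-3.59 ± 0.07, SD, n = 3). All null arrays lay above all wild-type arrays over a range of 0.42 log2 units. The difference of 0.27 (SE 0.083, adjusted p = 0.50), or 1.20-fold, was 0.30 within slide 1. The other kept probes of Col25a1 gave -0.072 and 0.077, so the difference was seen at 1 of 3 kept probes.

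Col23a1 measured -0.031, -0.61 and -0.34 in wild-type (-0.33 ± 0.29, SD, n = 3). In null samples it measured -0.60, -0.89 and -0.77 (-0.75 ± 0.14, SD, n = 3). The groups overlapped by a narrow margin, between wild-type 2 and null 1. It differed by -0.42 (SE 0.17, adjusted p = 0.54), and by -0.14 within slide 1, and all 3 of its probes had the same sign (-0.42, -0.40 and -0.25). Col13a1, found at muscle and nerve contacts, differed by -0.27 (SE 0.49).

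Col7a1 forms the anchoring fibrils that hold epithelium to the tissue below it. It measured 0.10, -0.23 and -0.071 in wild-type (-0.066 ± 0.165, SD, n = 3) and 0.17, 0.38 and 0.20 in null samples (0.25 ± 0.11, SD, n = 3). All null arrays lay above all wild-type arrays, at a difference of 0.31 (SE 0.11, adjusted p = 0.53), or 1.24-fold, and of 0.48 within slide 1. It was neither highest in wild-type 3 nor lowest in null 1. Col8a1 and Col8a2, the short-chain collagens of vessel walls and of the cornea's membrane, did have those ends. Their differences were -0.35 (SE 0.57) and -0.89 (SE 0.83), and Col8a2 ranged over 3.46 log2 units. Col15a1 and Col18a1, the basement membrane collagens with heparan or chondroitin sulphate chains, differed by -0.38 (SE 0.44) and -0.40 (SE 0.44) over all arrays and by 0.49 and 0.36 within slide 1.

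**Figure D3:**
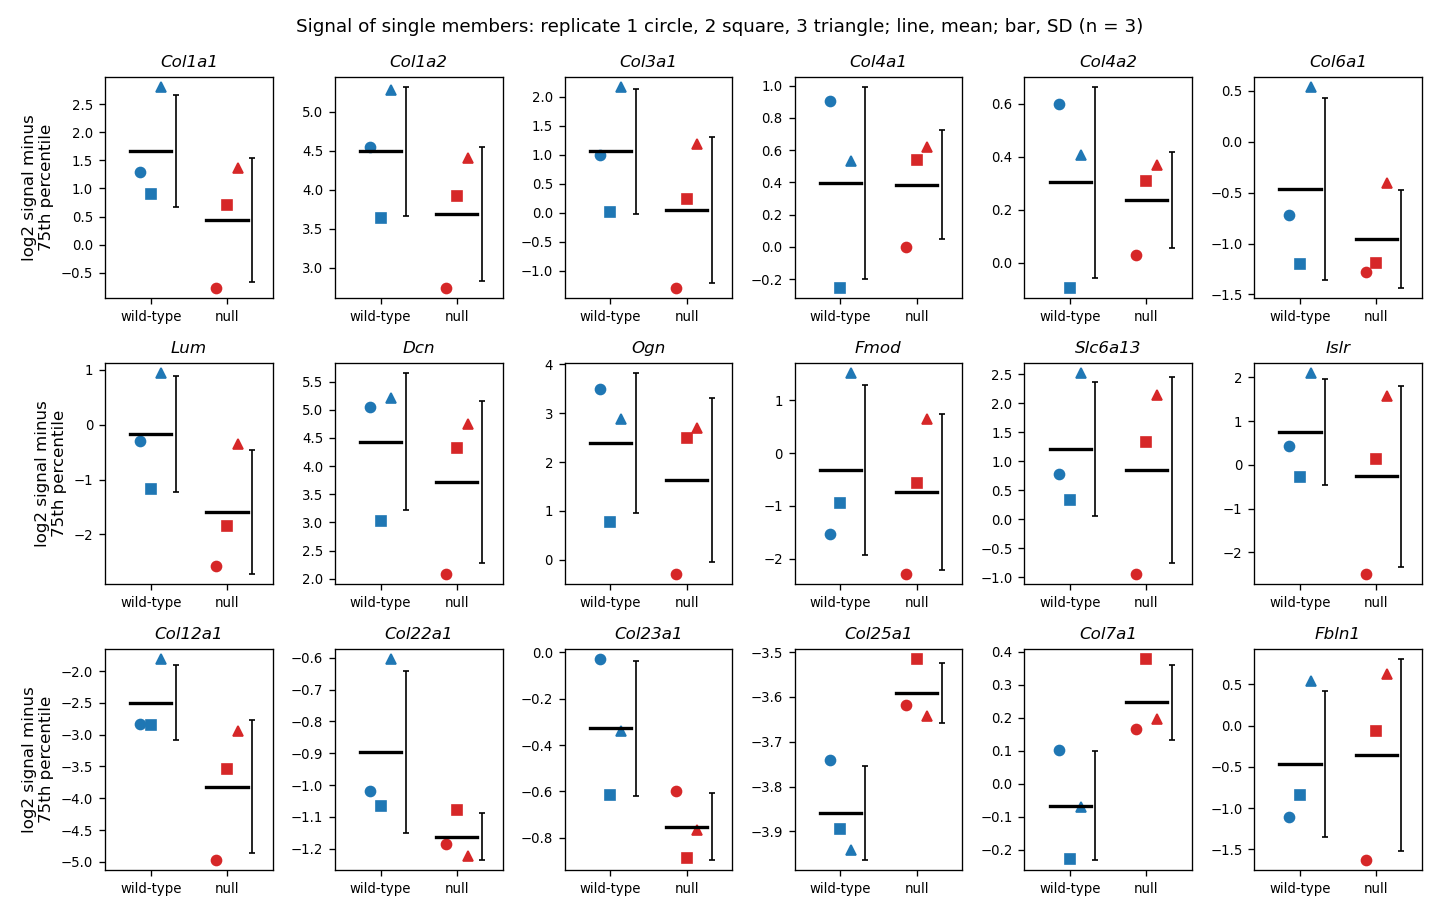
Log2 signal minus the array's 75th percentile for 18 named members in wild-type (blue) and Dhtkd1 null (red) samples, 1 point per array, with the mean (line) and SD (bar, n = 3); each panel has its own axis. For Col25a1 and Col7a1 all null points lie above the wild-type points, for Col12a1 and Col22a1 all lie below, and in the other 14 panels the groups overlap.

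Small leucine-rich proteoglycans varied widely between samples of a genotype. All 5 had the lower mean in null cord (median -0.71), all 5 were lowest in null 1, and their median within-group SD was 1.33 log2 units. Within slide 1, 2 of 5 were lower (median 0.21). Lum (lumican, chromosome 10) measured -0.29, -1.17 and 0.94 in wild-type (-0.17 ± 1.06, SD, n = 3) and -2.58, -1.84 and -0.36 in null samples (-1.59 ± 1.13, SD, n = 3). Null 3 lay above wild-type 2, so the groups overlapped. Its difference of -1.42 (SE 0.75, adjusted p = 0.61), or 2.67-fold lower, was the largest among the members, and within slide 1 it was -0.43.

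Dcn (decorin), the near neighbour of Lum on chromosome 10, binds collagen fibrils and TGF-beta. It measured 5.05, 3.03 and 5.22 in wild-type (4.43 ± 1.21, SD, n = 3) and 2.08, 4.33 and 4.75 in null samples (3.72 ± 1.43, SD, n = 3). Wild-type 2 and null 1 were low and the other 4 arrays were higher. The difference was -0.71 (SE 0.90, adjusted p = 0.82), and 0.68 within slide 1.

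Ogn (osteoglycin) measured 3.50, 0.78 and 2.88 in wild-type (2.39 ± 1.43, SD, n = 3). In null samples it measured -0.29, 2.50 and 2.70 (1.63 ± 1.67, SD, n = 3). As with Dcn, wild-type 2 and null 1 were the low arrays. Its difference was -0.75 (SE 1.06, adjusted p = 0.84), turning to 0.86 within slide 1.

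Fmod (fibromodulin), which binds collagen I, measured -1.53, -0.95 and 1.51 in wild-type (-0.32 ± 1.61, SD, n = 3) and -2.29, -0.57 and 0.64 in null samples (-0.74 ± 1.47, SD, n = 3). Wild-type 3 and null 3 were the high arrays, and the groups overlapped. The difference was -0.42 (SE 1.05, adjusted p = 0.91). Bgn (biglycan), the close relative of decorin, varied less, at -1.78, -1.45 and -1.22 in wild-type (-1.48 ± 0.28, SD, n = 3) and -1.95, -1.62 and -1.13 in null samples (-1.57 ± 0.41, SD, n = 3). Null 3 held its highest value, and it differed by -0.085 (SE 0.25, adjusted p = 0.92).

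Fbln1, Slc6a13 and Islr are made by fibroblasts of the meninges and of other connective tissue. Fbln1 (fibulin 1, of basement membranes and elastic fibres) measured -1.10, -0.84 and 0.54 in wild-type (-0.47 ± 0.88, SD, n = 3) and -1.63, -0.061 and 0.63 in null samples (-0.35 ± 1.16, SD, n = 3). Wild-type 3 and null 3 were alike and high, and the difference was 0.11 (SE 0.70, adjusted p = 0.97). Slc6a13, a GABA and taurine transporter of the leptomeninges, measured 0.78, 0.33 and 2.52 in wild-type (1.21 ± 1.15, SD, n = 3) and -0.95, 1.34 and 2.14 in null samples (0.85 ± 1.60, SD, n = 3). Null 2 and null 3 both exceeded wild-type 1 and wild-type 2, and the difference was -0.37 (SE 0.95, adjusted p = 0.91).

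Islr, a membrane-anchored protein of stromal fibroblasts, had the widest range of any member, 4.59 log2 units. It measured 0.44, -0.28 and 2.09 in wild-type (0.75 ± 1.22, SD, n = 3) and -2.50, 0.13 and 1.58 in null samples (-0.26 ± 2.07, SD, n = 3). The difference was -1.01 (SE 1.15, adjusted p = 0.80), and 0.022 within slide 1. Null 1 held the lowest value for all 3 of these genes.

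Removing wild-type 3 and null 1 moves members with those ends (21 of 46) upward by construction, so the following is a description. With both arrays left out, 4 of 46 members were higher at an unadjusted p under 0.05, beside 4.73% of all genes, with 2 samples per group. They were Fbln1 at 1.25 (SE 0.28), Slc6a13 at 1.19 (SE 0.35), Col6a4 at 0.72 (SE 0.095) and Col20a1 at 0.65 (SE 0.10), with adjusted p from 0.33 to 0.56. Among the 17 of 46 members still lower were 8 of 11 fibril-forming and 7 of 9 fibril-associated collagens (medians -0.093 and -0.21).

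**Figure D4:**
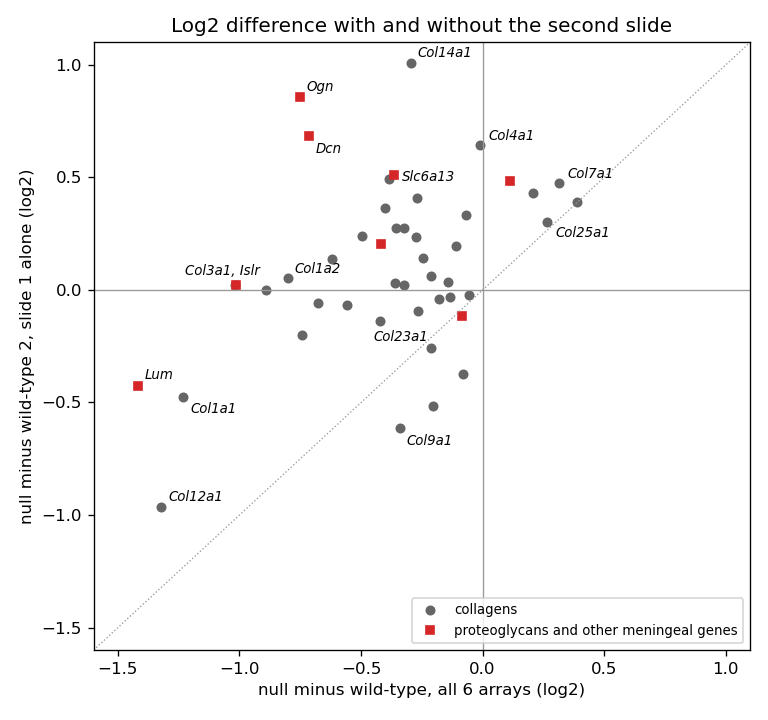
Each point is 1 of the 46 tested members, with the null minus wild-type log2 difference over all 6 arrays on the horizontal axis and the same against wild-type 2 alone, on slide 1, on the vertical axis; the dotted line marks equal values. Most points lie above the line: 41 members were below 0 over all arrays and 16 within slide 1.

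Among genes that process or receive collagen, none passed the adjusted threshold. Of 28 tested genes for collagen modification and cross-linking, 23 had the lower mean (median -0.17). At an unadjusted p under 0.05, 1 was lower (all genes, 3.25%) and 1 higher (all genes, 5.76%). Tll1, a protease that trims procollagen, was well above background in 3 wild-type and 0 null samples, which bounds it at least 1.48-fold lower in null (adjusted p = 0.50). Adamts14, another procollagen protease, was higher by 0.26 (SE 0.097). Of 18 genes for collagen receptors and breakdown, 12 had the lower mean (median -0.16), and the smallest p belonged to Ctsk (cathepsin K, -0.58, SE 0.24) and Mmp2 (gelatinase A, -0.73, SE 0.30). The 3 null arrays lay below the wild-type arrays for Mmp2, 1 of the 18 genes (all genes, 5.63%).

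Of 14 genes of TGF-beta signalling, the main inducer of collagen genes, 7 had the lower and 7 the higher mean (median -0.040). Tgfb2, a ligand, and Tgfbr1, a receptor, differed by -0.20 (SE 0.090) and -0.24 (SE 0.14). Other basement membrane proteins were lower in 12 of 13 (median -0.26), but in 2 of 13 within slide 1. Nid1 (nidogen, which links laminin to collagen IV) differed by -0.69 (SE 0.25) and by -0.50 within slide 1. Its groups did not overlap, 1 of the 13 genes (all genes, 5.63% with all null arrays below). Lamc1, a laminin chain, differed by -0.27 (SE 0.17). Other stromal matrix proteins were lower in 11 of 14 (median -0.40) and in 1 of 14 within slide 1, with Aspn (asporin) at -0.46 (SE 0.24) and Fbln5 (fibulin 5) at -0.45 (SE 0.37). These lists had the same array at the top as the members: 11 of the 14 stromal and 7 of the 13 basement membrane genes were highest in wild-type 3.

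Vessel cells gave no uniform direction. Of 8 mural cell markers, 6 had the lower mean (median -0.15), with Myh11 (smooth muscle myosin) at -0.78 (SE 0.28) and Abcc9 (a pericyte potassium channel subunit) at 0.34 (SE 0.10). Of 8 endothelial markers, 4 were lower (median 0.095), with Slco1a4 (a barrier transporter) at -0.34 (SE 0.085) and Flt1 (a VEGF receptor) at 0.30 (SE 0.10). Slco1a4 had the smallest adjusted p of all listed genes, 0.43. All 6 Schwann cell markers had the lower mean (median -0.42), but within slide 1 only 1 of 6 was lower (median 0.81). Among them Pmp2 (a myelin lipid-binding protein) was well above background in 3 wild-type and 0 null samples. This bounds it at least 5.21-fold lower in null (adjusted p = 0.45). Its wild-type signals were -2.87, -5.54 and -4.47, highest in wild-type 1, and its difference within slide 1 was -1.40. Prx (periaxin) differed by -0.82 (SE 1.04).

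Of 8 cartilage and bone markers measured, 3 had the lower mean (median 0.081), with the cartilage genes Chad at 0.24 (SE 0.077) and Cnmd at -1.10 (SE 0.50). Of 8 sensory ganglion markers, 2 had the lower mean (median 0.36), with Tac1 (substance P precursor) at 0.46 (SE 0.13) and Scn10a (a sodium channel) at 1.19 (SE 0.63). Skeletal muscle markers were higher in 11 of 12 (median 0.65) and within slide 1 lower in all 12, with Actn3 at 0.91 (SE 0.57) and Atp2a1 at 1.07 (SE 0.75). Adipocyte markers were higher in 8 of 9 (median 0.70) and within slide 1 lower in 8 of 9 (median -0.74), with Ucp1 at 1.78 (SE 1.17) and Retn at 0.70 (SE 0.70). Among spinal cord markers, Hoxc6 differed by 0.29 (SE 0.077) and Gfap by -0.45 (SE 0.38). The part of these lists in the members' values was not tested.

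Several members are read by more than 1 probe. Of 84 kept probes, 66 had the lower mean in null cord, beside 14337 of 33190 kept probes of all genes. Among 30 genes with more than 1 kept probe, 17 had all probes of the same sign. Those that did include Col1a1, Col1a2, Col5a1, Col8a1, Dcn, Islr and Slc6a13. The other 13 were Col3a1, Col4a1, Col4a2, Col4a6, Col5a3, Col6a3, Col11a1, Col11a2, Col19a1, Col24a1, Col25a1, Col27a1 and Fbln1. Among them Col4a6 gave -0.56 at its brightest probe and 0.12 at another, and Col6a3 gave -0.27 and 1.34. No kept member probe was saturated.

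The 5 members that were not tested gave signals near background. Col10a1, of growth plate cartilage, and Col6a6 were not well above background on any array. Col17a1, of the hemidesmosomes of skin, was well above background on 1 of 3 null and 0 wild-type arrays. Null 3 stood at -4.45 and the other arrays from -8.19 to -7.06. Its group means give at least 1.25-fold higher in null, but this rests on null 3 alone and does not describe the group. The other Col17a1 probe was not well above background on any array. Col28a1 and Col6a5 were well above background in wild-type 1 alone and in no null sample, where their group means allow no fold. Their wild-type 1 signals were -5.66 and -5.25. Col28a1 is a collagen of peripheral nerve. The Schwann cell markers were also highest in wild-type 1, but a link between them and either of these signals was not tested.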

How the data were processed

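Scanner files hold deposited intensity values from 6 arrays (Agilent Feature Extraction 10.7.3.1), background-subtracted and detrended within an array per the file headers. Positions are mm9, as in the files; exons and UTRs were not assigned. The authors' deposited log2 table, whose method is not given in the sources used here, was an alternative only. Signals were log2 intensity minus each array's 75th percentile over non-control probes, without spots marked as outliers. Probes well above background on at least 3 of 6 arrays were kept, and the brightest kept probe stood for a gene. Null minus wild-type was fitted with limma 3.58.1 in R 4.3.3 (2-sided, Benjamini-Hochberg over 21438 genes) and checked on simulated data. The members, gene lists and alternatives were chosen with earlier results of these data known. Named with values on every array were 14 members listed by name and those with p under 0.05 or non-overlapping groups, and from each other list the 2 genes of smallest p. An exact permutation test of 3 against 3 cannot give a p under 0.1. Same-numbered samples deviated together for 1 of 3 numbers (r of -0.016, -0.11 and 0.33 across genes), so numbers were not taken as pairs. For a group with no array well above background, a fold is a bound: the mean of the other group against the dim group's mean, in which each array enters at the probe's signal or at its lowest signal well above background, whichever is higher. With 6 arrays, their number limits the precision.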

Additional observations from a re-analysis of the deposited data

How the results depend on the processing

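The cause of each change below was not tested. Over 21 alternatives, 346 values of the 19 named members kept their sign and stayed above the adjusted threshold of 0.05, and 53 turned sign. With slide as a fixed block, and equally on slide 1 alone, the median over the members was 0.057 and 16 of 46 were lower. Col1a2 then differed by 0.051, Col3a1 by 0.022, Col4a1 by 0.64, Col4a2 by 0.33, Col6a1 by 0.24, Dcn by 0.68, Ogn by 0.86, Fmod by 0.21, Slc6a13 by 0.51 and Islr by 0.022. Without wild-type 3 and null 1, the median was 0.13 and 17 of 46 were lower. This alternative was chosen after seeing the data and moves members highest in wild-type 3 and lowest in null 1 upward by construction. At an unadjusted p under 0.05, 4 were higher (all genes, 4.73%) and 0 lower (all genes, 3.58%). Col1a2 then differed by 0.072, Col3a1 by 0.21, Col4a1 by 0.25, Col4a2 by 0.087, Col6a1 by 0.16, Dcn by 0.50, Ogn by 0.46, Fmod by 1.27, Bgn by 0.24, Slc6a13 by 1.19 and Islr by 0.78.

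Leaving out 1 sample at a time, the median ran from -0.56 to -0.10 and the members lower from 30 to 41. Members at an unadjusted p under 0.05 ran from 0 to 3 higher (all genes, 3.83% to 8.64%) and from 0 to 4 lower (all genes, 1.91% to 4.90%), and genes past the adjusted threshold from 0 to 2. Differences ran from -0.34 to 0.25 for Col4a1, -0.27 to 0.080 for Col4a2, -0.86 to 0.0017 for Col6a1, -1.41 to 0.10 for Dcn, -1.56 to 0.21 for Ogn, -1.11 to 0.50 for Fmod, -0.30 to 0.11 for Bgn, -0.38 to 0.75 for Fbln1, -1.01 to 0.53 for Slc6a13 and -1.93 to 0.11 for Islr. Col1a1, Col1a2, Col3a1, Lum, Col12a1, Col22a1 and Col23a1 kept a negative sign in each of these 6 fits, and Col25a1 and Col7a1 a positive one.

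Apart from the slide as a fixed block, given above, the median kept its sign under other processing. Quantile normalization gave 0 members lower at an unadjusted p under 0.05 (all genes, 4.19%). So did the absence of a filter (all genes, 2.72%) and the mean of all kept probes (all genes, 2.85%). Normexp gave 3 lower (all genes, 4.16%) and 1 higher (all genes, 4.76%), and Col4a1 at 0.018. Median centring (all genes, 3.87%), the trend and robust options (5.29%), the mean of kept probes (5.85%) and the fixed slide block (4.6%) each gave 1 higher. With the mean of kept probes, Col4a1 differed by 0.026 and Fbln1 by -0.023. Fitted probe by probe, 66 of 84 were lower, beside 14337 of 33190 kept probes of all genes. Of the 84, 2 were lower at an unadjusted p under 0.05 (all probes, 2.84%). Quantile normalization, median centring, normexp, the authors' table and the filter on 6 arrays each put 1 gene past the adjusted threshold, and the trend and robust options 3, none a member.

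With the replicate number as a block (replicate block), 6 members were lower at an unadjusted p under 0.05 in place of 1 (all genes, 2.78% in place of 3.25%) and 2 were higher (all genes, 5.77%), 0 genes passed the adjusted threshold and the median stayed at -0.32. The samples share only a number.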
